A study of Mus musculus with 27 samples.

Results

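The interferon-stimulated genes described here are 39 genes of the antiviral programme, chosen by gene symbol. All 39 were found among the 24825 genes of the files, and their levels were compared across 9 groups of C2C12 cells. C2C12, an established line of mouse myoblasts, fuses into muscle fibers when it differentiates. Cells were infected with the pMXs retroviral vector, either empty (control), with full-length NFIA or with the Δpro#3 mutant. NFIA (nuclear factor I-A) is a DNA-binding transcription factor of brown adipocytes, and the Δpro#3 mutant lacks its C-terminal pro#3 domain. Each kind of cell was sampled at day 0, at day 7 after the start of a cocktail that induces adipocyte differentiation, and at day 7 after 4 h in 10 µM forskolin, which raises cyclic AMP. Each of the 9 groups had 3 replicates, 27 samples in all. All groups share the cell line and the viral infection, all day 7 groups share the cocktail, and both forms of NFIA were 3xFLAG-tagged and driven by the vector rather than by the gene's own promoter. The labels do not say that replicates were separate infections or cultures, so p-values measure the spread between these samples only.

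Interferons are secreted proteins by which cells warn each other of infection. Type I interferon binds the receptor of Ifnar1 and Ifnar2, whose kinases Jak1 and Tyk2 activate a complex with Stat2 and Irf9 that binds the interferon-stimulated response element in promoters. Type II interferon acts through Ifngr1 and Ifngr2 and the gamma-activated site. The genes switched on encode sensors of viral RNA, proteins that block translation or degrade RNA, membrane proteins that hold back virus entry and release, parts of antigen processing, and the factors Stat2, Irf7 and Irf9 of the pathway itself. Muscle and fat cells are not immune cells but carry the receptors, and many of these genes have a low level without added interferon.

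Promoters were read for these motifs because the pathway acts through them. RefSeq (GRCm38.p6) gave a window of 250 bases before to 50 bases after the start for 31 of the 39 members. The members without one were Mx1, Mx2, Rtp4, Dhx58, Parp9, Parp14, Usp18 and Oas2. The core of the interferon-stimulated response element, GAAANNGAAA on either strand, was in the windows of 16 of the 31 members (51.6%), against 1079 of 27025 genes with a window (3.99%). The gamma-activated site, TTCNNNGAA, was in 9 of the 31 (29.0%), against 9.55% of all genes. Both motifs were in 5 members and overlapped in 2, Bst2 and Ifitm3. The nuclear factor I palindrome, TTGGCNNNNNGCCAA, was in 1 member, Oasl1 (3.23%), against 0.0444% of all genes. A match is a description of the letters, and the RNA levels used here do not show what bound there. The 200 bases before the start are shown for Ifit1, Ifit3, Isg15 and Bst2, with the response element cores in capitals. These 4 held the core and were over 3-fold higher in the mutant than with full-length NFIA at day 7. Ifit2, Oasl2 and Irf7 were over 3-fold higher too, and their windows held no core. Oasl1 is shown with the nuclear factor I palindrome in capitals. A core on the other strand reads as its reverse complement.
Ifit1 (chr19:34640689-34640888, plus strand): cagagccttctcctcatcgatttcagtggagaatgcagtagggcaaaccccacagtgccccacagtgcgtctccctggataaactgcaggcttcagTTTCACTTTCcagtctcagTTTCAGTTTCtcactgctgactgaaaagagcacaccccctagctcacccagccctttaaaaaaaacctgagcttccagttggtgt
Ifit3 (chr19:34583329-34583528, plus strand): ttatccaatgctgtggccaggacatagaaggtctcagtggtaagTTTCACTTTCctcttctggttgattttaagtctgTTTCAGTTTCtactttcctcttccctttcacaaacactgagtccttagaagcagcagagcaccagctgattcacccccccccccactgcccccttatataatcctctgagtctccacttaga
Isg15 (chr4:156200819-156201018, minus strand): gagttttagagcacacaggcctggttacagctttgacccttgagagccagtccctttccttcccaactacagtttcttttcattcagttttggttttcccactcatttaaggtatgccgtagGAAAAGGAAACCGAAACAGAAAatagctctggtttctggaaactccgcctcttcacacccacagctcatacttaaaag
Bst2 (chr8:71537473-71537672, minus strand): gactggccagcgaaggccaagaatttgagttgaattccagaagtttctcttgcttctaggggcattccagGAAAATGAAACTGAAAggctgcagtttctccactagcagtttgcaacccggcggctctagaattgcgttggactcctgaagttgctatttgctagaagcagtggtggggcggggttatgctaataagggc
Oasl1 (chr5:114923040-114923239, plus strand): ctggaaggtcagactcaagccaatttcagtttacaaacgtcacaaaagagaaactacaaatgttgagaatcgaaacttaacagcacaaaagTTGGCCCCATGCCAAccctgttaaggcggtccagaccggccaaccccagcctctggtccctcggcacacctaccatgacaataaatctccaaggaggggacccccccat
Ifit1 and Ifit3 each had 2 separate cores, which began 104 and 85 bases and 156 and 122 bases before the start. Isg15 had 3 cores and Bst2 had 2 that overlapped their neighbours, beginning 78, 72 and 66 bases before the start in Isg15 and 130 and 124 bases in Bst2. The palindrome of Oasl1 began 109 bases before its start.

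Levels are given in FPKM (fragments per kilobase of gene, relative to all fragments of the sample). Worked back from FPKM and gene length, the depth was 9567769 to 27230965 fragments per sample. Nfia was at 225.3 FPKM or more in every sample with either construct and at 0.0885 to 7.35 FPKM in control cells. Its level differed between the constructs. At day 0 it was at 225.3 to 250.2 FPKM with full-length NFIA and 397.1 to 422.9 FPKM with the mutant. At day 7 it was at 457.3 to 527.9 and 374.2 to 480.5 FPKM, and with forskolin at 497.4 to 594.1 and 262 to 344.2 FPKM. The part of these levels in the members' values was not tested. The value of 7.35 FPKM, from 1930 fragments, was in control replicate 2 at day 0, which was also the highest of the 3 control samples at day 0 for 34 of the 39 members. The part of that trace in the members' values was not tested, and counts without this sample are given beside the day 0 results. At day 7, replicate 1 of the Δpro#3 mutant stood apart: it was the highest of its group for 35 of the 39 members, and its adipocyte markers summed to 1637 FPKM against 356 and 418 FPKM in the other 2 samples. Counts without it are given below. At day 0, all 6 myoblast and muscle markers were lower with full-length NFIA than in control cells, and 5 of the 6 with the mutant. The 6 adipocyte markers summed at day 0 to 8.37 to 9.79 FPKM in control samples, 61.3 to 68.5 FPKM with full-length NFIA and 24.3 to 35.1 FPKM with the mutant. With full-length NFIA at day 7, all 6 adipocyte markers were over 3-fold higher and all 6 myoblast and muscle markers were lower than in control cells, and with the Δpro#3 mutant 5 adipocyte and 4 muscle markers were higher and 2 muscle markers lower. What these shifts in cell state add to the members' values was not tested. Of 10 symbols listed as leukocyte and macrophage markers, 9 were in the files, the other being an older symbol of Adgre1, and 3 were tested at day 7. Their sum was 13.7 to 19.7 FPKM over the 9 samples at day 7, with its highest value in control cells, and 8.18 to 32.3 FPKM over all 27. At day 0 it was higher with both constructs than in control cells, as given below. Ptprc, a surface protein of leukocytes and 1 marker of this list, was at 0.0272 FPKM or less in every sample, so the sum came from other markers. The 3 endothelial markers summed to 1.39 FPKM or less. In bulk RNA, fewer cells with a transcript and less transcript per cell cannot be told apart.

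The members covered a wide range of levels. Ifitm3 and Ifitm2, membrane proteins that block virus entry, were the highest, with 198 to 518 FPKM for Ifitm3 and 144 to 345 FPKM for Ifitm2 over the 27 samples. Oas3, Cmpk2 and Mx1 stayed under 0.5 FPKM in every sample. At day 0 the median level over the 39 members was 3.27 FPKM in control cells, 3.01 FPKM with full-length NFIA and 3.44 FPKM with the Δpro#3 mutant. At day 7 it was 1.10, 1.32 and 3.08 FPKM in the same order, and with forskolin 0.841, 0.774 and 1.98 FPKM. The highest of the 3 group means belonged to the Δpro#3 mutant for 33 of the 39 members at day 7 and for 33 with forskolin, and the lowest to full-length NFIA for 24 and 29 members. These orders were not counted over all genes. In the test described below, 41.1% of all genes were lower with full-length NFIA than in control cells at day 7 and 47.0% with forskolin. In the mutant, 34.3% and 42.0% were higher than with full-length NFIA. At day 0 the order was mixed, with the highest mean in control cells for 13 members, with full-length NFIA for 17 and with the mutant for 9.

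**Figure D1:**
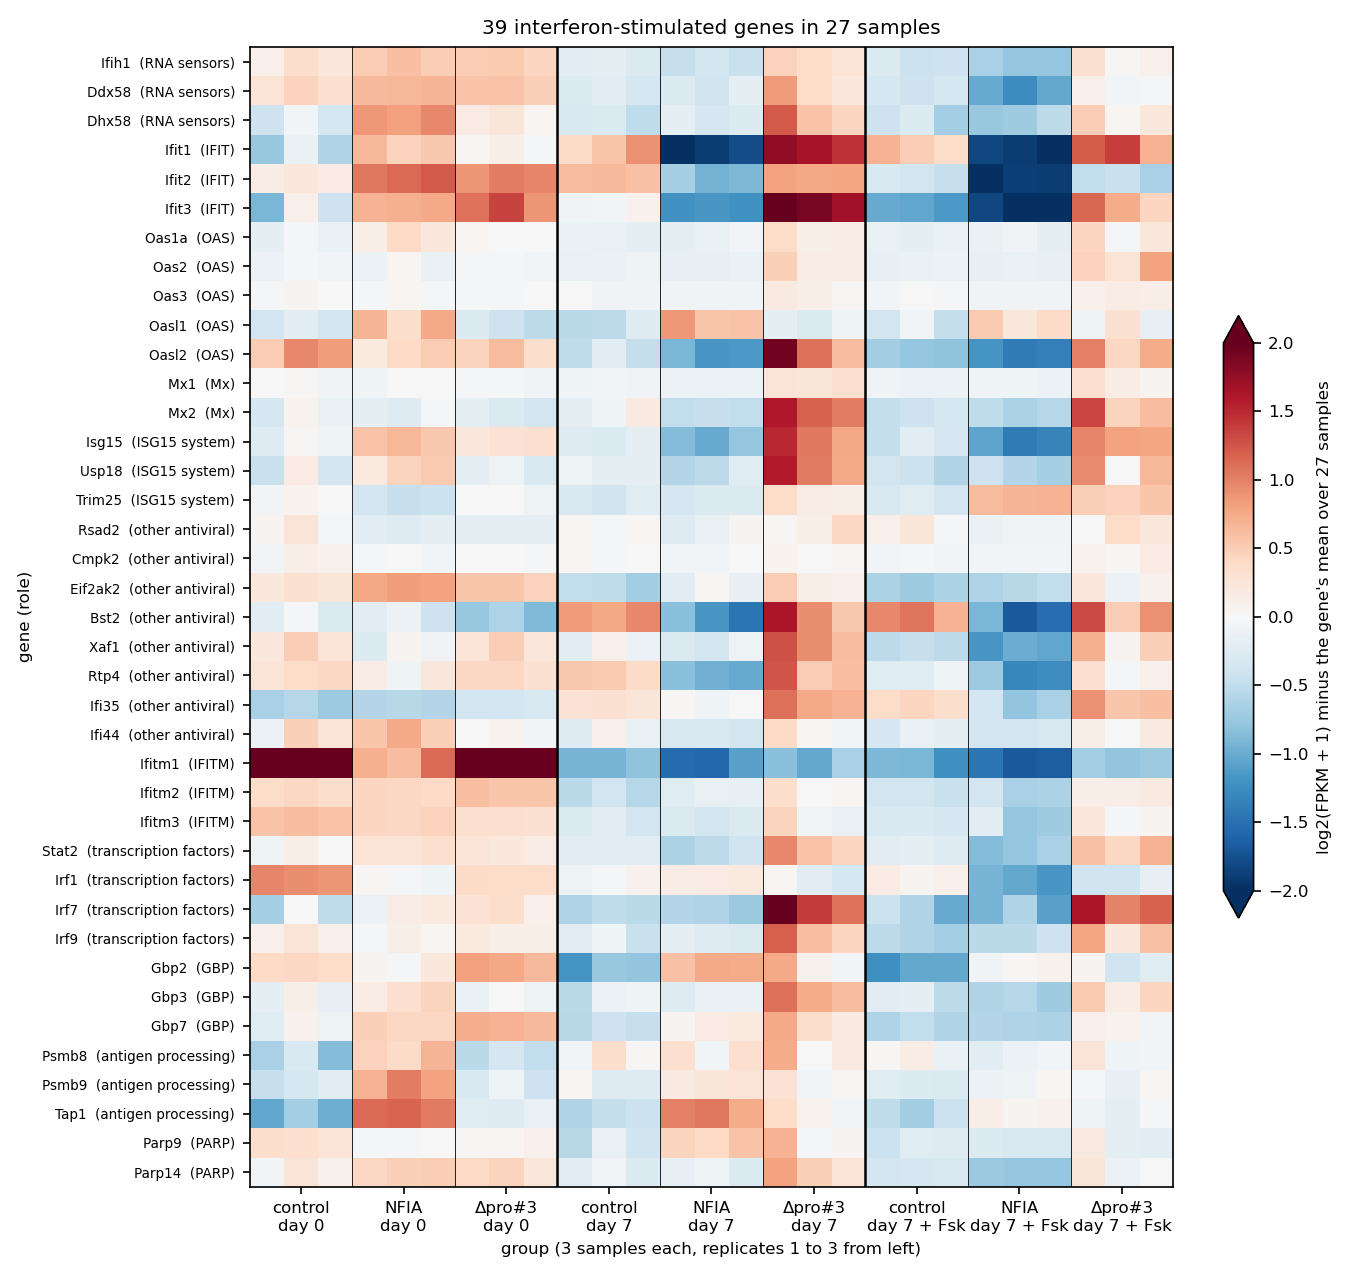
Heat map of all 39 members (rows, with role) in all 27 samples (columns, 3 per group), coloured by log2(FPKM + 1) minus the mean of the gene over the 27 samples, with colours saturated at 2 in each direction. At day 7 and with forskolin the Δpro#3 samples are the warmest of the 3 constructs for most rows. The full-length NFIA samples with forskolin are the coolest of the 9 groups for most rows, and the Ifitm1 row is high at day 0 only.

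Constructs were compared at each time point with limma on log2(FPKM + 1), over genes with a mean of 0.5 FPKM or more in the 9 samples. A gene is said to have risen or fallen, or to be higher or lower, at a Benjamini-Hochberg adjusted p under 0.05, and changes are differences on this log2 scale ± SE with 3 samples per group. At low levels this scale understates a fold change, so a member counted as over 3-fold passed that mark on this scale, and more members pass it with a smaller pseudocount (given below). The deposited values were not scaled between samples, and median-ratio scaling moved the median of all genes by over 0.1 in 5 comparisons, given beside their results below. At day 7, 32 members were tested. Of these, Oasl1, Mx2, Usp18 and Psmb9 reached the minimum only through their highest group, so counts over the tested members describe those genes only, and for those described at day 7 the adjusted p of the rise with no filter on low values is given. Oas1a, Oas2, Oas3, Mx1, Rsad2, Cmpk2 and Ifi44 were not tested.

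At day 7 the interferon-stimulated genes separated the Δpro#3 mutant from both other kinds of cell. Against full-length NFIA, 24 of 32 members were higher (75.0%) and 3 lower (9.38%), where 34.3% of all 12324 genes tested were higher and 29.4% lower. The median change was 0.83 against 0.03 over all genes. The difference was over 3-fold in 9 members, all higher in the mutant: Ifit1, Ifit2, Ifit3, Oasl2, Mx2, Isg15, Bst2, Rtp4 and Irf7. Over all genes tested, 2.60% were over 3-fold higher. Against control cells, 24 of 32 members were higher with the mutant and 0 lower, where 21.3% of all genes were higher and 27.5% lower, with a median of 0.72 against -0.04. No member was lower at an unadjusted p under 0.05 either, nor by limma-voom. Irf7, Ifit3 and Oasl2 were over 3-fold higher than in control cells, where 0.933% of all genes were. With a pseudocount of 0.1, 11 members were over 3-fold higher than with full-length NFIA (34.4%, against 4.40% of all genes) and 9 than in control cells (28.1%, against 2.26%). With no filter on low values, all 39 members were tested. Of them, 30 were higher and 3 lower than with full-length NFIA (25.2% and 22.8% of all genes). Against control cells, 27 were higher and 0 lower (15.2% and 19.3% of all genes). Without replicate 1 of the mutant, 24 members were higher and 1 lower than in control cells, and 23 higher and 5 lower than with full-length NFIA.

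Full-length NFIA against control cells at day 7 gave a divided picture. Of 32 members, 8 were higher and 10 lower, where 31.3% of all genes were higher and 41.1% lower, so the shares of members (25.0% and 31.2%) were not above those of all genes. The median was -0.01 against -0.08. Ifit1 and Bst2 fell by over 3-fold, where 3.30% of all genes did, and Gbp2 rose by over 3-fold, where 4.87% of all genes did. With a pseudocount of 0.1 these counts were 5 (15.6%, against 5.70% of all genes) and 3 (9.38%, against 7.03%). With a minimum of 5 FPKM, 14 members were tested, of which 2 were higher and 7 lower, against 32.0% and 45.1% of the genes tested. Median-ratio scaling gave 9 members higher and 8 lower (median 0.06), and over all genes 4477 higher and 4302 lower, against 3852 and 5065 as deposited. Both comparisons with control cells share the same 3 control samples. The 10 lower members were Ifit1, Ifit2, Ifit3, Bst2, Rtp4, Isg15, Oasl2, Mx2, Ifitm1 and Ifi35, and the 8 higher ones were Gbp2, Tap1, Oasl1, Parp9, Gbp7, Eif2ak2, Psmb9 and Ifitm2. Most are described by role in the next paragraphs. Ifitm1 was at 0.912, 0.894 and 1.09 FPKM in control samples, 0.242, 0.225 and 0.709 FPKM with full-length NFIA and 1.02, 0.791 and 1.31 FPKM with the mutant, so it was low in all and lowest with full-length NFIA (-0.51 ± 0.14). Ifi35, lower by 0.30 on the log2 scale, no longer passed under median-ratio scaling (adjusted p = 0.0836) or without replicate 2 of full-length NFIA (adjusted p = 0.05).

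**Figure D2:**
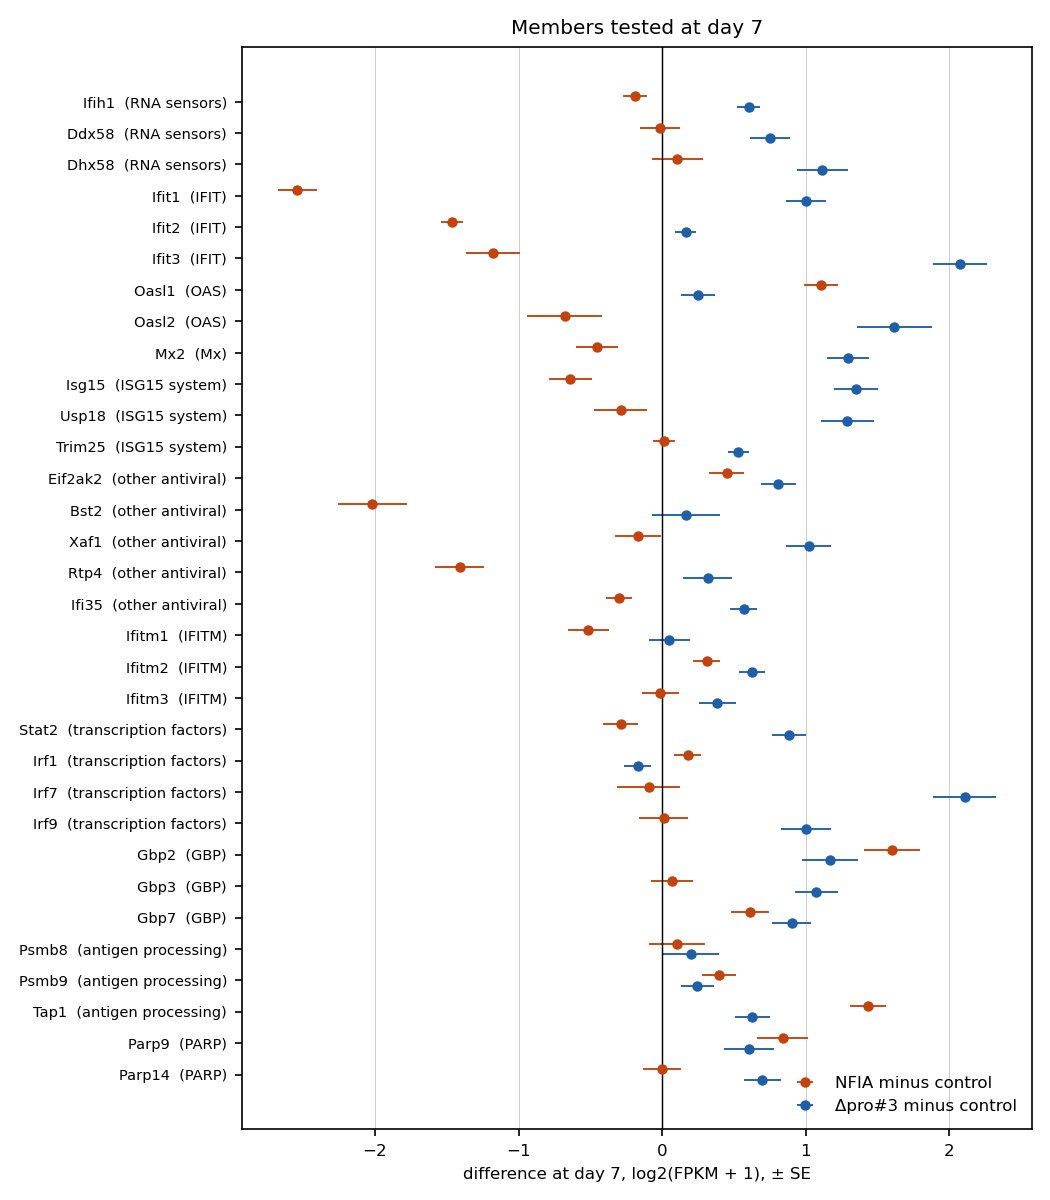
Differences from control cells at day 7 on the log2(FPKM + 1) scale (x axis, points with SE bars) for the 32 members tested (y axis, ordered by role), with full-length NFIA in orange and the Δpro#3 mutant in blue. For Ifit1 the orange point lies at -2.54 and the blue point at 1.01, and for Tap1 the order is turned round, with 1.43 and 0.63.

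The Ifit proteins bind viral RNA and block its translation. Ifit1 (mm9, chr19:34715361-34724499) was at 8.41, 9.53 and 12.5 FPKM in the control samples at day 7, at 0.673, 0.939 and 1.09 FPKM with full-length NFIA and at 23.5, 21.5 and 18.6 FPKM with the mutant. The 3 groups did not overlap, and the mutant samples were the highest. Ifit1 fell with full-length NFIA (-2.54 ± 0.14, adjusted p = 7.78e-08) and rose with the mutant (1.01 ± 0.14, adjusted p = 0.000262), a gap of 3.54 ± 0.14 between them. Ifit3 (mm9, chr19:34658021-34663221) was at 4.17, 4.22 and 4.78 FPKM in control samples, at 1.36, 1.43 and 1.36 FPKM with full-length NFIA and at 32.1, 19.4 and 16.4 FPKM with the mutant. Its groups were apart in the same order, with differences from control of -1.18 ± 0.19 and 2.08 ± 0.19 (adjusted p = 0.000247 and 1.94e-05). Ifit2 was at 10.4, 10.6 and 10.1 FPKM in control samples, at 3.64, 2.83 and 2.92 FPKM with full-length NFIA and at 11.9, 11.5 and 11.8 FPKM with the mutant. It fell with full-length NFIA (-1.46 ± 0.08, adjusted p = 5.36e-08), while the difference of 0.16 ± 0.08 with the mutant had an adjusted p of 0.102. Reads shared between the near-identical Ifit copies were not counted under unique mapping, so reads from such stretches are missing from these levels.

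Isg15 is a ubiquitin-like protein that is linked to other proteins during infection, and Usp18 removes it and dampens the receptor. Isg15 was at 7.64, 7.62 and 8.12 FPKM in control samples at day 7, at 4.70, 4.17 and 5.09 FPKM with full-length NFIA and at 28.5, 20.4 and 16.8 FPKM with the mutant. The groups were apart, and Isg15 fell by 0.64 and rose by 1.35 on the log2 scale (adjusted p = 0.00318 and 7.2e-05). Usp18 was at 0.482, 0.403 and 0.385 FPKM, 0.0590, 0.110 and 0.346 FPKM and 3.79, 2.27 and 1.69 FPKM in the same order. It rose with the mutant (1.29 ± 0.18, adjusted p = 0.000323, and 0.00121 with no filter), the group through which it reached the minimum, and did not pass with full-length NFIA (-0.29 ± 0.18, adjusted p = 0.185). Trim25, a ligase that activates the sensor RIG-I, rose with the mutant (0.53 ± 0.07) and differed from control by 0.01 ± 0.07 with full-length NFIA (adjusted p = 0.893).

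Of the 4 transcription factors, 3 rose with the mutant, where 21.3% of all genes did. Irf7, the factor that amplifies type I interferon production, was at 1.48, 1.66 and 1.61 FPKM in control samples, at 1.52, 1.49 and 1.27 FPKM with full-length NFIA and at 16.2, 8.97 and 7.02 FPKM with the mutant. The mutant samples lay above all others, while the other 2 groups overlapped, and Irf7 rose with the mutant (2.11 ± 0.22, adjusted p = 4.58e-05) without passing for full-length NFIA (-0.09 ± 0.22, adjusted p = 0.723). Its window held no match to any of the 3 motifs. Stat2 and Irf9, 2 parts of the complex that binds the response element, rose with the mutant by 0.88 and 1.002, and neither passed with full-length NFIA (-0.29 and 0.01). Irf1, a factor strongly induced by type II interferon, was the exception. It did not pass with either construct (0.18 and -0.17) and was lower in the mutant than with full-length NFIA (-0.35 ± 0.09, adjusted p = 0.0076).

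Bst2 (tetherin) holds budding viruses at the cell surface. It was at 23.8, 22.6 and 25.7 FPKM in control samples at day 7, at 6.69, 5.13 and 4 FPKM with full-length NFIA and at 41.4, 25.2 and 18.9 FPKM with the mutant. All 3 samples with full-length NFIA lay below the others, while the mutant overlapped with control. Bst2 fell with full-length NFIA (-2.02 ± 0.24, adjusted p = 2.65e-05), and its difference of 0.17 ± 0.24 with the mutant had an adjusted p of 0.592. Rtp4, an interferon-stimulated chaperone, showed the same shape, at 5.01, 4.95 and 4.39 FPKM, 1.33, 1.14 and 1.06 FPKM and 8.99, 4.90 and 5.31 FPKM. It fell by 1.41 on the log2 scale with full-length NFIA (adjusted p = 2.9e-05) and differed by 0.32 ± 0.17 with the mutant (adjusted p = 0.148). Of the other antiviral members, Xaf1, Ifi35 and the kinase Eif2ak2 (PKR), which stops translation on binding double-stranded RNA, rose with the mutant by 1.02, 0.57 and 0.81. Without replicate 1 of the mutant, Eif2ak2 no longer passed between the mutant and full-length NFIA (0.23, adjusted p = 0.0622), nor without replicate 1 or 3 of full-length NFIA (adjusted p = 0.0756 and 0.0646).

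Oasl2 belongs to the oligoadenylate synthetase family, which triggers RNA degradation. It was at 1.05, 1.48 and 1.09 FPKM in control samples, at 0.533, 0.294 and 0.307 FPKM with full-length NFIA and at 10.0, 5.23 and 3.46 FPKM with the mutant. The groups were apart, but the fall with full-length NFIA was small against the spread (-0.68 ± 0.26, adjusted p = 0.0384) and no longer passed under median-ratio scaling (adjusted p = 0.0525), with no filter, or without 5 of the 6 samples compared in turn. Its rise with the mutant was 1.62 ± 0.26 (adjusted p = 0.000686). Mx2, an antiviral GTPase, was at 0.460, 0.564 and 0.880 FPKM, 0.172, 0.200 and 0.181 FPKM and 4.01, 2.75 and 2.38 FPKM in the same order. It reached the minimum only through the mutant. It rose with the mutant (1.29 ± 0.15, adjusted p = 7.63e-05, and 0.000334 with no filter) and fell with full-length NFIA (-0.46 ± 0.15, adjusted p = 0.0167, and 0.0276 with no filter), a call lost without control replicate 3 (adjusted p = 0.0691). Its difference between the mutant and full-length NFIA had an adjusted p of 1.92e-05 with no filter. Of the 7 members too low for the test, Oas1a, Oas2, Oas3 and Mx1 each had the 3 mutant samples above all samples of both other groups. Oas2 had 63 fragments over the 3 mutant samples against 5 in control cells and 1 with full-length NFIA, and Mx1 had 47 against 4 and 0. The exact permutation test gave p = 0.1 for these, 2-sided, the smallest it can give with 3 samples against 3. Rsad2 (viperin), Cmpk2 and Ifi44 overlapped between the mutant and control cells (exact permutation p = 0.3, 0.4 and 0.3).

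The 3 RNA sensors rose with the mutant, where 21.3% of all genes did, and none passed with full-length NFIA. Ifih1 (MDA5), Ddx58 (RIG-I) and Dhx58 (LGP2) rose with the mutant by 0.60, 0.75 and 1.11 on the log2 scale, and their differences with full-length NFIA (-0.19, -0.02 and 0.11) missed the threshold. All 3 were higher in the mutant than with full-length NFIA, by 0.77 to 1.01. The membrane proteins Ifitm2 and Ifitm3 rose with the mutant by 0.62 and 0.38. For Ifitm3 the adjusted p was 0.0321, and the call was lost when any 1 of the 3 control samples was left out (adjusted p = 0.0501 to 0.0973) and with no filter on low values (adjusted p = 0.0639).

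Tap1, Gbp2 and Oasl1 went another way at day 7. Tap1, a subunit of the transporter that loads peptides for MHC class I, was at 0.757, 0.927 and 0.983 FPKM in control samples at day 7, at 4.36, 4.53 and 3.47 FPKM with full-length NFIA and at 2.46, 1.79 and 1.57 FPKM with the mutant. Full-length NFIA gave the highest samples and the groups did not overlap. Tap1 rose by 1.43 ± 0.12 with full-length NFIA and by 0.63 ± 0.12 with the mutant (adjusted p = 2.39e-06 and 0.00218), and was lower in the mutant than with full-length NFIA (-0.81 ± 0.12, adjusted p = 0.000244). Gbp2, a GTPase against intracellular pathogens, was at 0.455, 0.944 and 0.903 FPKM, 3.92, 4.53 and 4.49 FPKM and 4.57, 2.49 and 2.16 FPKM in the same order. It rose with both constructs (1.60 ± 0.20 and 1.17 ± 0.20), which overlapped with each other (adjusted p = 0.0794 for their difference). Oasl1, which limits translation of Irf7, was at 0.239, 0.243 and 0.504 FPKM, 2.28, 1.63 and 1.67 FPKM and 0.562, 0.476 and 0.693 FPKM. It rose with full-length NFIA (1.11 ± 0.12, adjusted p = 1.25e-05, and 4.01e-05 with no filter), the group through which it reached the minimum, did not pass with the mutant (0.25 ± 0.12, adjusted p = 0.105), and was lower in the mutant than with full-length NFIA (-0.85 ± 0.12, adjusted p = 0.000119, and 0.000271 with no filter). Irf1, Tap1 and Oasl1 were the 3 members lower in the mutant than with full-length NFIA. Of the other members of these families, Gbp7 was 0.61 and 0.90 above control with full-length NFIA and the mutant and Gbp3 rose with the mutant (1.08) without passing for full-length NFIA (0.07). Psmb9, which reached the minimum through full-length NFIA, rose with it (0.39, adjusted p = 0.011 with no filter) and did not pass with the mutant (0.25), and Psmb8 passed with neither (0.10 and 0.20). Of the poly-ADP-ribose polymerases, Parp9 rose with both (0.84 and 0.61, the latter not passing without control replicate 1, adjusted p = 0.0654) and Parp14 with the mutant (0.70), with 0.00 for full-length NFIA. Tap1 and Psmb9 lie head to head on opposite strands, and the counting used strand.

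**Figure D3:**
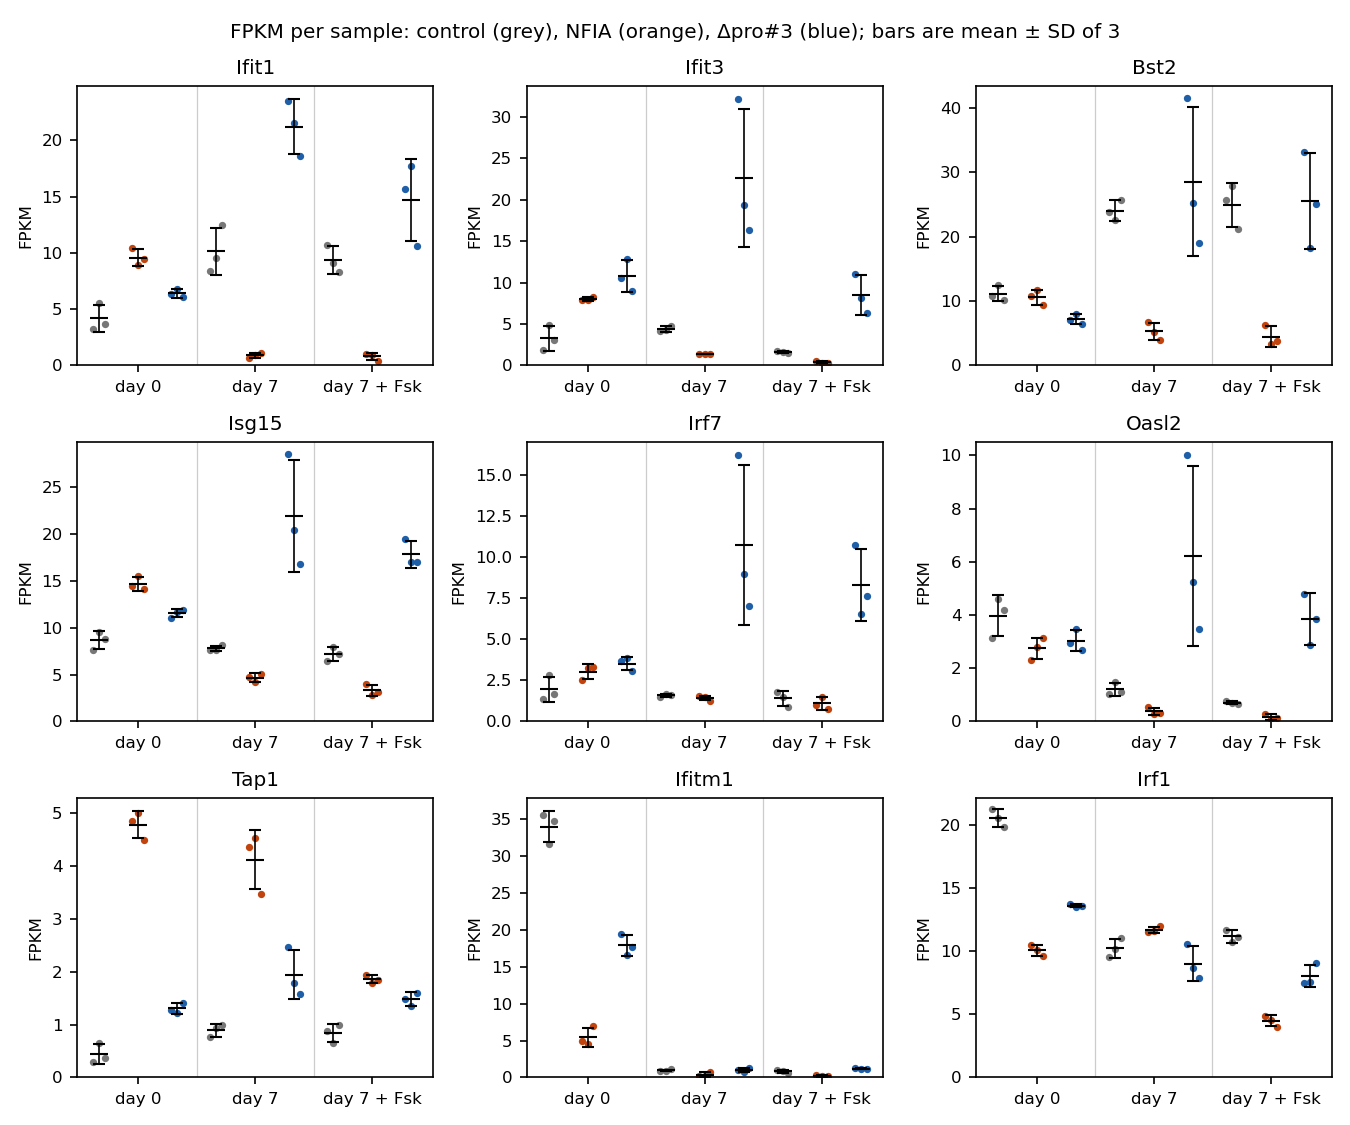
FPKM of 9 members in each of the 27 samples (points), with the mean ± SD of the 3 samples of each group (black bars), for control (grey), full-length NFIA (orange) and Δpro#3 mutant cells (blue) at day 0, day 7 and day 7 with forskolin. Ifit1, Bst2 and Isg15 are lowest with full-length NFIA at day 7. Irf7 and Oasl2 are highest of the 3 constructs with the mutant at day 7 and with forskolin. Tap1 is highest with full-length NFIA at day 0 and day 7, and Ifitm1 is high at day 0 only.

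At day 0, before differentiation, the order was different. Of 32 members tested, 19 were higher with full-length NFIA than in control cells and 9 lower, where 37.7% of 12105 genes were higher and 35.6% lower, and the median was 0.34 against 0.01. With the mutant, 16 were higher and 5 lower than in control cells (32.5% and 29.7% of all genes), with a median of 0.17 against 0.01. Against full-length NFIA, 9 members were higher and 14 lower with the mutant (33.4% and 31.9% of all genes), with a median of -0.09. Oasl1, Usp18, Ifi44, Psmb8 and Psmb9 passed the filter only through full-length NFIA and are in these counts. With no filter over all 39 members, 20 were higher and 10 lower with full-length NFIA than in control cells (28.8% and 26.8% of all genes, median 0.27). With the mutant, 16 were higher and 6 lower than in control cells (23.4% and 21.9%, median 0.02). Between the constructs, 9 were higher and 15 lower in the mutant than with full-length NFIA (23.9% and 23.5%). With a minimum of 5 FPKM and 15 members, the median with full-length NFIA was 0.07. Without control replicate 2, the counts were 20 higher and 9 lower with full-length NFIA, and 17 and 5 with the mutant. The leukocyte and macrophage markers moved with the constructs at day 0 too. They summed to 8.18 to 8.36 FPKM in control samples, 20.3 to 22.1 FPKM with full-length NFIA and 18.5 to 19.2 FPKM with the mutant, and of the 3 tested, 2 were higher with full-length NFIA and 3 with the mutant, 1 of them over 3-fold with each. Their part in the members' values was not tested.

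The Ifit genes and Isg15 rose with full-length NFIA at day 0. Ifit1 was at 3.24, 5.57 and 3.72 FPKM in control samples, at 10.4, 8.88 and 9.44 FPKM with full-length NFIA and at 6.38, 6.77 and 6.04 FPKM with the mutant, with full-length NFIA the highest and no overlap. It rose by 1.05 ± 0.13 with full-length NFIA and by 0.54 ± 0.13 with the mutant (adjusted p = 2.83e-05 and 0.0046). Ifit2 was at 7.12, 7.57 and 7.25 FPKM, 14.2, 15.1 and 16.3 FPKM and 12.5, 13.9 and 13.4 FPKM, and rose by 0.96 and 0.78. Ifit3 was at 1.88, 4.83 and 3.09 FPKM, 7.85, 7.87 and 8.27 FPKM and 10.6, 12.9 and 9.04 FPKM, and rose by 1.14 and 1.52. Isg15 was at 7.64, 9.57 and 8.77 FPKM, 14.4, 15.5 and 14.1 FPKM and 11.1, 11.7 and 11.9 FPKM, and rose by 0.70 and 0.38. In all 4 genes the samples of both constructs lay above those of control cells.

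Tap1, Psmb8 and Psmb9, of which the latter are subunits of the immunoproteasome, and Dhx58 were among the members that rose most with full-length NFIA at day 0. Tap1 was at 0.300, 0.660 and 0.364 FPKM in control samples, at 4.85, 4.997 and 4.49 FPKM with full-length NFIA and at 1.27, 1.23 and 1.41 FPKM with the mutant. It rose by 2.01 ± 0.09 and 0.68 ± 0.09 (adjusted p = 4.46e-09 and 5.67e-05). Tap1 was the 1 member over 3-fold higher with full-length NFIA than in control cells at day 0 (3.12%), where 2.46% of all genes were, and with a pseudocount of 0.1 there were 5 (15.6%, against 4.61%). Psmb8 and Psmb9 rose by 1.11 and 1.19 with full-length NFIA and did not pass with the mutant (0.15 and 0.08), and Dhx58 rose by 1.15 and 0.42. All 4 were lower in the mutant than with full-length NFIA, with differences from -0.73 (Dhx58) to -1.33 (Tap1). As Psmb8 and Psmb9 reached the minimum only through full-length NFIA, the group in which they were high, their rise was also tested with no filter, where the adjusted p was 0.000149 and 1.64e-05.

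Ifitm1 and Irf1 went down at day 0. Ifitm1, a membrane protein of the same family as Ifitm2 and Ifitm3, was at 35.6, 31.7 and 34.8 FPKM in control samples, at 4.92, 4.54 and 6.95 FPKM with full-length NFIA and at 19.5, 16.6 and 17.6 FPKM with the mutant. The groups were apart, with the mutant in between. Ifitm1 was the 1 member over 3-fold lower with full-length NFIA (3.12%, against 2.78% of all genes), and it fell by 2.45 with full-length NFIA and by 0.89 with the mutant on the log2 scale (adjusted p = 8.38e-09 and 6.2e-05). Irf1 was at 21.3, 20.6 and 19.9 FPKM, 10.5, 10.1 and 9.62 FPKM and 13.8, 13.5 and 13.6 FPKM, and fell by 0.96 and 0.56 in the same order. Its groups did not overlap either. Bst2 was at 10.7, 12.5 and 10.2 FPKM in control samples and 10.8, 11.6 and 9.34 FPKM with full-length NFIA (adjusted p = 0.522), and was lower with the mutant, at 7.09, 7.96 and 6.45 FPKM (-0.57 ± 0.09).

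Whether the difference from control changed from day 0 to day 7 was tested as an interaction over the 18 samples of both days. For full-length NFIA, the difference from control was more positive at day 7 in 6 of 32 members and more negative in 15, where 31.1% and 40.1% of 12408 genes were. For the mutant, it was more positive in 23 and more negative in 1, where 18.9% and 25.9% of all genes were. The latter split over all genes was 2844 and 2510 after median-ratio scaling, against 2341 and 3209 as deposited, and the counts of members were 23 and 1 under both. The largest shifts were those of Ifit1 (-3.59 ± 0.21), Ifit2 (-2.42 ± 0.09) and Ifit3 (-2.31 ± 0.31) for full-length NFIA, which turned from higher than control at day 0 to lower at day 7. Isg15 turned in the same way (-1.34 ± 0.18), and Gbp2 and Parp9 turned from lower to higher (1.91 ± 0.22 and 1.18 ± 0.20). These 6 of the 31 members tested on both days compare with 17.4% of 11630 genes that turned in either direction, and with the mutant it was 2 members, Ifitm3 and Parp9, and 7.27% of the genes. Bst2 did not pass at day 0 and fell at day 7, with an interaction of -1.95 ± 0.28 (adjusted p = 1.08e-05). For the mutant, Oasl2 (1.91 ± 0.31), Irf7 (1.47 ± 0.30) and Mx2 (1.44 ± 0.19) shifted most. Mx2 and Usp18 passed the filter of this fit only through the mutant at day 7, and Psmb9 only through full-length NFIA at day 0, so the shift of Mx2 is tied to how it was chosen for testing.

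**Figure D4:**
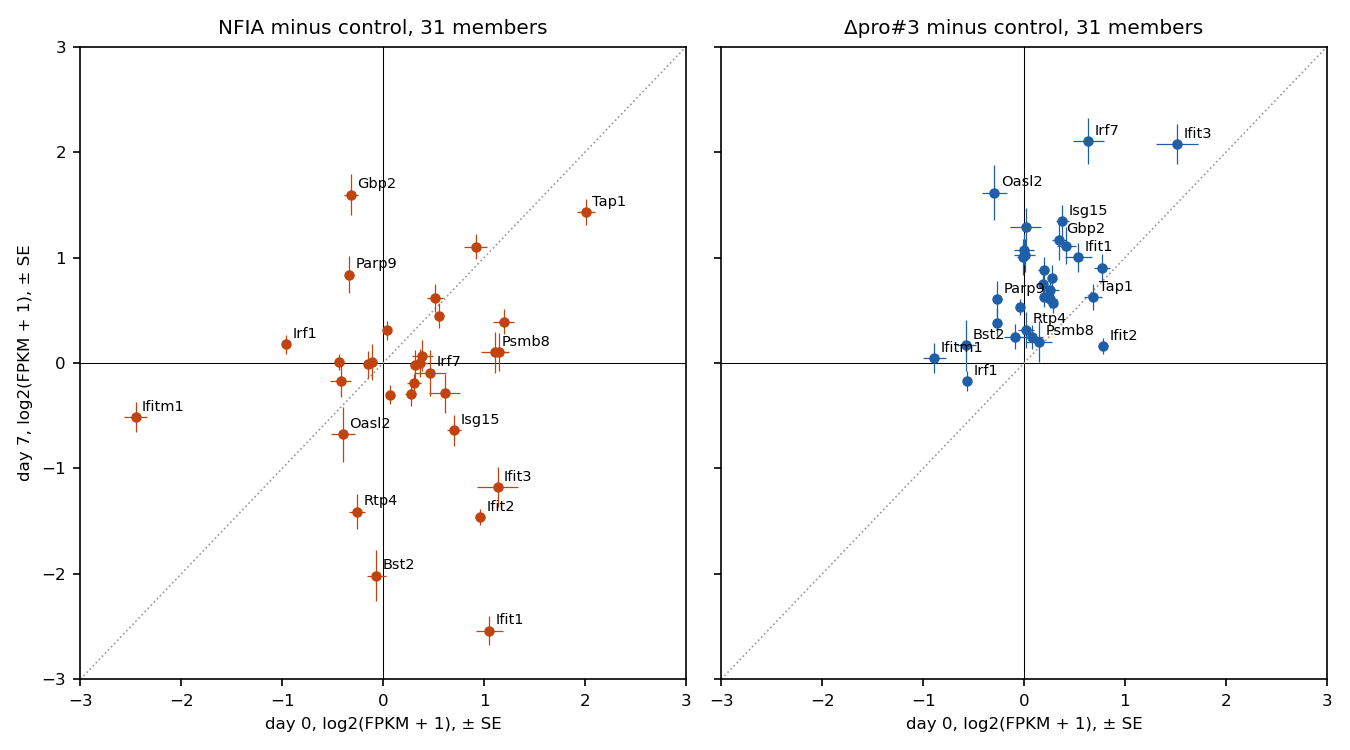
Difference from control cells at day 0 (x axis) and at day 7 (y axis) on the log2(FPKM + 1) scale with SE bars, for the 31 members tested at both times, with full-length NFIA on the left and the Δpro#3 mutant on the right. The dotted line marks equal differences. On the left, Ifit1, Ifit2, Ifit3 and Isg15 lie at the lower right, and on the right most points lie above the line.

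Within each kind of cell, the members moved differently from day 0 to day 7. In control cells, 6 of 32 members rose and 16 fell (36.0% and 42.7% of 12408 genes), with a median of -0.21. With full-length NFIA, 4 rose and 22 fell (33.2% and 46.5% of all genes), with a median of -0.68. With the mutant, 19 rose and 8 fell (32.8% and 46.7% of all genes), with a median of 0.39. After median-ratio scaling, the mutant's counts were 19 and 4, and the falls numbered 3 and 4 without replicate 2 and 3 of the mutant at day 7 and 5 without either at day 0. That scaling moved the median of all genes from -0.11 to 0.02 with full-length NFIA and from -0.112 to -0.000803 with the mutant. All genes with full-length NFIA split as 5046 rising and 4703 falling after that scaling, against 4115 and 5770 as deposited. Ifitm1 fell in all 3 kinds of cell, with changes of -4.16 ± 0.14 in control cells, -2.22 ± 0.14 with full-length NFIA and -3.22 ± 0.14 with the mutant. Ifit1 rose in control cells (1.11 ± 0.15) and with the mutant (1.58 ± 0.15) and fell with full-length NFIA (-2.48 ± 0.15). Bst2 did likewise, with 1.05 ± 0.20, 1.79 ± 0.20 and -0.90 ± 0.20. Ifi35, a partner of Nmi, rose in all 3 (0.93, 0.56 and 1.22 in control, full-length NFIA and mutant cells).

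With forskolin the members again separated the constructs. In this condition replicate 1 stood apart in both NFIA groups: with full-length NFIA it was the highest of its group for 23 of the 39 members, and with the mutant for 25. Chi-square per gene against the other 2 samples was 12.8 and 14.2 for the former and 11.3 and 13.25 for the latter, where those 2 samples differed by 3.27 and 5.76. The adipocyte markers summed to 129.5 to 443.1 FPKM over the 3 mutant samples, and the 39 members to 549.1, 416.8 and 430.8 FPKM in the 3 samples with full-length NFIA. All 6 adipocyte markers were over 3-fold higher and all 6 myoblast and muscle markers over 3-fold lower with full-length NFIA than in control cells. In the mutant, all 6 adipocyte markers were over 3-fold lower and 5 muscle markers over 3-fold higher than with full-length NFIA. Leukocyte and macrophage markers summed to 25.1 to 32.3 FPKM in control samples, 16.5 to 19.2 FPKM with full-length NFIA and 21.5 to 26.0 FPKM with the mutant. Endothelial markers summed to 0.0952 to 0.163, 1.12 to 1.39 and 0.557 to 0.741 FPKM in the same order. The part of these differences in the results was not tested. Of 31 members tested, 25 were higher in the mutant than with full-length NFIA and 1 lower, where 42.0% of 12121 genes were higher and 24.2% lower, with a median of 1.00 against 0.12. Of these, Ifit1, Ifit3, Oasl2, Isg15, Bst2 and Irf7 were over 3-fold higher, where 2.89% of all genes were. Oasl2 reached the minimum only through the mutant, and its adjusted p with no filter was 4.74e-06. With a pseudocount of 0.1, 16 members were over 3-fold higher (51.6%, against 5.05% of all genes) and the median was 1.70. Against control cells, 23 were higher and 1 lower with the mutant (19.5% and 27.1% of all genes), with a median of 0.58, and without replicate 1 of the mutant 18 were higher and 1 lower. Without replicate 1 of full-length NFIA, 25 members were higher and 1 lower in the mutant than with full-length NFIA, and 4 were higher and 17 lower with full-length NFIA than in control cells. With full-length NFIA, 4 were higher and 16 lower than in control cells (25.5% and 47.0% of all genes), with a median of -0.32 against -0.17. Ifit1 and Bst2 were over 3-fold lower with full-length NFIA than in control cells (6.45%, against 3.77% of all genes), and Ifit3 and Irf7 over 3-fold higher with the mutant (6.45%, against 0.866%). With a pseudocount of 0.1 both counts were 6 (19.4%, against 6.23% and 1.92%), and the median with full-length NFIA was -0.67. Median-ratio scaling moved the median of all genes from -0.17 to -0.01 in this comparison and its split from 3088 higher and 5697 lower to 4208 and 4234, and left 5 members higher and 15 lower. Between the mutant and full-length NFIA, that scaling moved the median of all genes from 0.12 to 0.01 and gave 3820 genes higher and 3817 lower, against 5085 and 2938 as deposited, and 25 and 4 members. Ifih1, Oasl2, Mx2, Usp18, Gbp3 and Gbp7 passed the filter only through the mutant. With no filter over all 39 members, 32 were higher and 1 lower in the mutant than with full-length NFIA (29.8% and 19.2% of all genes).

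Ifit1 was at 10.7, 9.06 and 8.29 FPKM in control samples with forskolin, at 1.03, 0.932 and 0.424 FPKM with full-length NFIA and at 15.6, 17.7 and 10.6 FPKM with the mutant. It fell with full-length NFIA (-2.54 ± 0.18, adjusted p = 3.1e-07), and its rise with the mutant (0.58 ± 0.18, adjusted p = 0.0231) no longer passed without replicate 1 (0.52, adjusted p = 0.0646) or replicate 2 of the mutant (0.43, adjusted p = 0.0917), without control replicate 2 or 3, with no filter (adjusted p = 0.0567) or with a pseudocount of 0.1 (adjusted p = 0.0903). Bst2 was at 25.7, 27.9 and 21.2 FPKM, 6.32, 3.28 and 3.78 FPKM and 33.2, 18.3 and 25.0 FPKM in the same order, and only the samples with full-length NFIA stood apart (-2.28 ± 0.22, adjusted p = 4.14e-06). Irf7 was at 1.81, 1.51 and 0.888 FPKM, 0.990, 1.51 and 0.778 FPKM and 10.7, 6.52 and 7.62 FPKM, with the mutant above both others (1.95 ± 0.19 against control). Irf1 was at 11.7, 10.8 and 11.1 FPKM, 4.91, 4.58 and 4.03 FPKM and 7.52, 7.57 and 9.06 FPKM. It fell with both, with changes of -1.15 ± 0.09 for full-length NFIA and -0.43 ± 0.09 for the mutant.

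The response to forskolin itself was small in control cells, where 0 of 31 members rose and 3 fell (7.05% and 13.5% of 12245 genes). No member rose at an unadjusted p under 0.05 or by limma-voom either. The 3 were Ifit2 (-1.004 ± 0.08), Ifit3 (-1.05 ± 0.19) and Rtp4 (-0.66 ± 0.17), and 5 members fell when replicate 1 of the mutant at either condition was left out of the fit, which all 18 samples share, and 6 when both were. With full-length NFIA, 1 rose and 16 fell (13.9% and 41.5% of all genes), and with the mutant 1 rose and 14 fell (11.9% and 23.9%). Of the 6 adipocyte markers, 5 fell with forskolin in the mutant, 3 of them over 3-fold, and the part of this shift in the members' values was not tested. The falls with the mutant numbered 5 without its replicate 1 at day 7, 10 without replicate 1 at both conditions, and 7 and 8 without its replicate 2 and 3 with forskolin. They numbered 9 of 39 with no filter (23.1%, against 15.6% of all genes). With a pseudocount of 0.1 they numbered 7 (22.6%, against 23.7%), a share not above that of all genes. Usp18 passed the filter of this fit only through the mutant at day 7, the group from which a fall is measured. Over all genes, median-ratio scaling gave 1118 rising and 1044 falling in control cells, against 863 and 1651 as deposited, and 2740 and 3489 with full-length NFIA, against 1698 and 5087, where it moved the median of all genes from -0.15 to -0.04. Ifit2 fell in all 3 kinds of cell (-1.004, -1.11 and -1.32). The 1 member that rose was Trim25, at 7.14, 7.47 and 7.38 FPKM without and 14.9, 15.5 and 15.7 FPKM with forskolin in cells with full-length NFIA (0.98 ± 0.07, adjusted p = 4.31e-09). It rose by 0.29 ± 0.07 with the mutant and differed by 0.01 ± 0.07 in control cells (adjusted p = 0.951).

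The response differed from that of control cells in 8 members with full-length NFIA, more positive in 1 and more negative in 7, where 9.16% and 21.5% of all genes were (1540 and 1859 genes after median-ratio scaling, against 1122 and 2630). The 1 was Trim25 (0.97 ± 0.09), and Irf1 had the largest difference in the other direction (-1.33 ± 0.13, adjusted p = 1.81e-06). Irf1 was at 11.5, 11.6 and 12.0 FPKM with full-length NFIA without forskolin, against 4.91, 4.58 and 4.03 FPKM with it. Ddx58, Ifi35, Parp9, Tap1, Gbp7 and Ifitm2 were the others that responded more negatively. For the mutant, 0 members passed in either direction (2.47% and 2.50% of all genes), with 1 more positive and 2 more negative at an unadjusted p under 0.05 and 0 by limma-voom. With replicate 1 of the mutant at day 7 left out, 1 member responded more positively than in control cells.

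The genes upstream of the members were read from gene lists. Of 11 symbols listed as interferon ligands, 9 were in the files, none reached the minimum level, and their sum was 0.265 FPKM or less in every sample. Ifnb1 had 1 fragment in all over the 3 samples of full-length NFIA at day 0, 1 in the mutant at day 7, and 0 in the other 7 groups. Of 6 symbols listed as receptor subunits, 5 were in the files and all 5 were tested. Ifnar1 was at 9.48, 9.54 and 9.001 FPKM in control samples at day 7, 9.002, 8.71 and 8.45 FPKM with full-length NFIA and 8.13, 8.09 and 8.58 FPKM with the mutant. Its difference between the mutant and full-length NFIA was -0.07 ± 0.06 (adjusted p = 0.3), and that of Ifnar2 was 0.08 ± 0.07 (adjusted p = 0.379). At day 7, 1 of the 5 receptor subunits was higher and 1 lower in the mutant than with full-length NFIA, against 34.3% and 29.4% of all genes.

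At day 7, 21.3% of all genes were higher and 27.5% lower with the mutant than in control cells, and 31.3% and 41.1% with full-length NFIA. Of the 7 signalling genes tested at day 7, 5 were higher and 1 lower with the mutant than in control cells, and 3 higher and 1 lower with full-length NFIA. Of 11 sensors and adaptors upstream of interferon that were tested, 6 were higher and 2 lower with the mutant than in control cells, and 5 and 5 with full-length NFIA. Of 7 negative regulators, 3 were higher and 2 lower with the mutant and 4 and 3 with full-length NFIA. None of the genes tested on the receptor, signalling, sensor and regulator lists changed over 3-fold between constructs at any of the 3 conditions.

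Another 57 symbols of interferon-stimulated genes were listed beside the members, among them an older symbol of Trim30a, and 53 were in the files and 39 tested at day 7. With the mutant, 24 were higher and 2 lower than in control cells (median 0.50), where 21.3% and 27.5% of all genes were (median -0.04). With full-length NFIA 21 were higher and 8 lower (median 0.38), where 31.3% and 41.1% of all genes were (median -0.08). Between them, 18 were higher and 11 lower with the mutant (median 0.19), where 34.3% and 29.4% of all genes were (median 0.03). The genes over 3-fold did not move in 1 direction. Ccl5, a chemokine, was at 1.61, 1.01 and 0.803 FPKM in control samples at day 7, at 4.53, 3.75 and 1.65 FPKM with full-length NFIA and at 19.1, 12.0 and 16.7 FPKM with the mutant, and it rose by 0.96 ± 0.26 and 2.98 ± 0.26. Its mutant samples lay above the rest. Casp4, an inflammatory caspase, was at 30.7, 31.3 and 26.8 FPKM, 2.17, 2.66 and 2.49 FPKM and 11.3, 12.0 and 12.5 FPKM, and fell by 3.15 and 1.24 on the log2 scale. Casp1 fell over 3-fold with full-length NFIA under forskolin (-2.12 ± 0.11). Ifi27l2a was at 0.669, 0.942 and 1.06 FPKM in control samples, at 300.1, 289.7 and 306 FPKM with full-length NFIA and at 42.4, 9.14 and 7.16 FPKM with the mutant. It rose by 7.31 ± 0.49 and 3.02 ± 0.49, and the mutant's replicate 1 was its highest sample. Ifi27 and Lgals3bp rose with full-length NFIA by 2.33 ± 0.13 and 1.81 ± 0.25, and with the mutant by 1.43 ± 0.13 and 1.81 ± 0.25.

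The promoter motif was then read against the changes at day 7. Of the 9 members over 3-fold higher in the mutant than with full-length NFIA, 7 had a window and 4 of those held the response element core. Of the other 30 members, 24 had a window and 12 held it. With windows of the 250 bases before the start alone, 12 of the 31 members held the core (38.7%), against 3.46% of all genes.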

How the data were processed

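Stranded, poly(A)-selected libraries were sequenced from the 27 samples of C2C12 cells, 3 per group. Fragments were aligned by the authors to mm9 with STAR 2.5.3a and counted where they mapped uniquely on the matching strand. The deposited values are FPKM per gene and sample, with neither scaling between samples nor a log. Fragments per gene were not read but worked back from FPKM times gene length, taking the smallest value of a sample as 1 fragment; 100% of the values came out whole within 0.01 fragments, and the depth is their sum. Unique mapping leaves out reads shared by near-identical copies.

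Groups came from the sample labels. Values were tested as log2(FPKM + 1) with limma 3.58.1 (R 4.3.3, mean-variance trend), for genes with a mean of 0.5 FPKM or more in the samples of a fit, with Benjamini-Hochberg adjustment over all genes tested. Constructs were compared in fits of 9 samples, and days and forskolin responses in fits of 18. Members not tested were compared by an exact permutation test. A gene's values in every sample were given for members changed over 3-fold between constructs, and for a few that a comparison turned on, chosen after their values were seen. The members and gene lists were chosen with earlier results of these data known. Alternatives were a pseudocount of 0.1, no filter, a minimum of 5 FPKM, median-ratio scaling, limma-voom on fragments, a replicate block, each sample left out, and, chosen after seeing the data, replicate 1 of the mutant left out throughout. Chi-square per gene between replicates of a group was 1.52 to 14.2 over 27 pairs, so no library was counted as deposited more than once within a group. Libraries of different groups were not compared in this way. Plots were drawn with matplotlib 3.10.9.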

Additional observations from a re-analysis of the deposited data

Results flagged for a closer look

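The difference between full-length NFIA and control cells was not the same at day 0 and day 7 in 21 of the 32 members tested (limma interaction over 18 samples, adjusted p under 0.05), more positive at day 7 in 6 (18.8%) and more negative in 15 (46.9%). Of all genes tested, 31.1% were more positive and 40.1% more negative. For the mutant this was so in 24 members, more positive in 23 and more negative in 1, against 18.9% and 25.9% of all genes. The response to forskolin differed between full-length NFIA and control cells in 8 of 31 members, 1 more positive (3.23%) and 7 more negative (22.6%). With 9.16% and 21.5% of all genes, this is no result particular to the members.

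In 6 of the 31 members tested on both days, the difference with full-length NFIA passed the test on both days with opposite signs and as an interaction, which is 19.4%, near the 17.4% of 11630 genes for which this was so, and no result particular to the members. The change from day 0 to day 7 on the log2(FPKM + 1) scale was -3.59 for Ifit1, -2.42 for Ifit2, -2.31 for Ifit3 and -1.34 for Isg15, which were higher than control at day 0 and lower at day 7, and 1.91 for Gbp2 and 1.18 for Parp9, which were lower and then higher. With the mutant this was so for Ifitm3 (0.65) and Parp9 (0.87), lower at day 0 and higher at day 7, 2 of 31 members (6.45%) against 7.27% of all genes. The difference at day 7 no longer passed for Ifitm3 when any 1 of the 3 control samples was left out (adjusted p = 0.0501 to 0.0973) or with no filter (adjusted p = 0.0639), nor for Parp9 with the mutant without control replicate 1 (adjusted p = 0.0654). Control replicate 2 at day 0 enters these differences. It held Nfia at 7.35 FPKM, and the part of that in the values was not tested.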

How the results depend on the processing

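The comparisons between constructs at 1 time point made 211 calls of single members, and none was reversed under any alternative. Single calls of the day, interaction and forskolin-response comparisons were not followed, only their counts. Limma-voom lost 0 of the 211, a pseudocount of 0.1 lost 1, median-ratio scaling 3 and no filter 5, and leaving out each sample in turn lost 17 at least once. Leaving out replicate 1 of the mutant throughout gave a value for 206 of them and lost 7. A minimum of 5 FPKM kept 96 calls and lost 0 of these. Fewer members were tested with that minimum (15 at day 0, 14 at day 7 and 11 with forskolin), and the counts given next were lower. The shares of members moved too, in both directions. For full-length NFIA against control at day 0, the share higher went from 59.4% to 46.7%. The share falling with forskolin in the mutant went from 45.2% to 28.6%. With forskolin, the share higher in the mutant than with full-length NFIA went from 80.6% to 90.9%. The part of the low-level members in these shifts was not tested. The counts were 7 higher and 4 lower for full-length NFIA against control at day 0 (38.6% and 37.7% of all genes with that minimum). At day 7, 2 were higher and 7 lower (32.0% and 45.1%), and with forskolin 1 and 6 (26.9% and 49.2%). For the mutant against control, 9, 11 and 9 were higher in the same order (33.6%, 22.6% and 21.3%). For the mutant against full-length NFIA, 5 were higher and 7 lower at day 0 (35.5% and 33.6%). At day 7 these were 13 and 1 (38.0% and 30.5%), and 10 were higher with forskolin (44.6%). From day 0 to day 7, of 15 members, 9 fell in control cells (43.6% of all genes). With full-length NFIA 2 rose and 11 fell (34.6% and 47.8%), and 8 rose with the mutant (35.3%). The effect at day 7 against day 0 was more negative in 7 for full-length NFIA (41.7%) and more positive in 12 for the mutant (19.6%). With forskolin, of 14 members, 8 fell with full-length NFIA (41.4%) and 4 with the mutant (23.9%). The response was more negative with full-length NFIA than in control cells in 4 (22.0%). Of 37 counts over 3-fold and medians, limma-voom moved 25, a pseudocount of 0.1 moved 24, a minimum of 5 FPKM moved 13, no filter 7, replicate 1 of the mutant left out 4 and scaling 1 (counts by over 1.5 times, medians by 0.1 or more). Against control cells, members over 3-fold higher with the mutant at day 7 numbered 9 by limma-voom against 3, and between the mutant and full-length NFIA with forskolin 17 against 6, with medians of 1.92 against 0.995 there and 1.18 against 0.83 at day 7. Other counts moved by over 1.5 times as follows. Without replicate 1 of the mutant throughout, 1 member was lower than in control cells and 5 than with full-length NFIA at day 7, 6 fell with forskolin in control cells, and 2 (full-length NFIA) and 1 (mutant) responded more positively to forskolin than control. With forskolin, limma-voom gave 2 and scaling 4 members lower in the mutant than with full-length NFIA. Scaling gave 4 falling from day 0 to day 7 with the mutant. A pseudocount of 0.1 gave 5 falls with forskolin in control cells and 7 with the mutant, and no filter gave 9 with the mutant. The cause was not tested for these.

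With each sample left out in turn, members lower with the mutant numbered 0 to 1 against control and 3 to 5 against full-length NFIA at day 7, and 0 to 3 against full-length NFIA with forskolin. Falls from day 0 to day 7 with the mutant numbered 3 to 9, falls with forskolin 3 to 5 in control cells and 5 to 17 with the mutant, and more positive responses than control 1 to 2 for full-length NFIA and 0 to 1 for the mutant. The median response of the mutant minus that of control cells turned from -0.17 to 0.034 without replicate 1 of the mutant at day 7, the highest value with a sample left out, and the lowest was -0.31 without its replicate 3.

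With the replicate number as a block, all 38 counts of members, over all comparisons, stayed within 1.5 times, for example 12 against 14 falls with forskolin in the mutant and 7 against 8 from day 0 to day 7, and 0 of the 211 calls between constructs were lost. Samples with the same number did not deviate together on average (mean correlation 0.00825, -0.0362 and -0.000613 at the 3 conditions, with 0, 1 and 0 of 9 pairs over 0.1). With 3 samples per group, this cannot show whether samples with the same number shared an infection, culture or batch. Depth limits the members under 0.5 FPKM, some of which had fewer than 10 fragments in a group.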
